A study of Mus musculus with 2 samples.

Results

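The 10 genes described here write, copy, erase or protect DNA methylation: Dnmt1, Uhrf1, Dnmt3a, Dnmt3b, Dnmt3l, Tet1, Tet2, Tet3, Tdg and Zfp57. They were chosen by name for their role rather than by a measured value, but with earlier results of these data known. They are 10 of the 21883 protein-coding genes of the gene table. All 10 were found in that table and in the promoter table, which lists 19 annotated starts for them. The DNA came from wild-type XX embryos of the C57Bl6/J strain at embryonic day 6.5, from natural matings and never cultured. Epiblast, the layer that gives rise to the embryo proper, was separated by hand from extraembryonic tissue, and the sex was read by PCR on that tissue. Both of the study's samples, 2 in all, belong to this 1 group, and their counts came as 1 table without sample columns, taken here as a pool. The number of embryos behind each sample is not given in the sources used here.

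DNA methylation in mammals sits mostly on the cytosine of CpG, a C followed by a G on the same strand. DNMT3A and DNMT3B place new methyl groups, helped by the inactive relative DNMT3L, and DNMT1 copies the marks onto new strands at replication, where UHRF1 brings it to hemimethylated sites. The TET enzymes oxidise the methyl group, TDG cuts out the oxidised bases, and ZFP57 protects methylation at imprinted genes during the wave of demethylation in the early embryo. Around implantation the epiblast regains methylation over most of the genome, while most CpG-rich promoters stay unmethylated.

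Whole-genome bisulfite sequencing reads unmethylated cytosines as thymine and leaves methylated ones as cytosine, so each read gives a yes or no at each CpG it covers. 5-Hydroxymethylcytosine, the first TET product, is read as methylated. A level below is the methylated share of read counts, summed over the CpGs of a region, and the range beside it is its 95% exact binomial (Clopper-Pearson) interval. These intervals cover counting error alone: a read over several CpGs is counted at each, and reads carried no molecular identifiers. Over 16854 windows at autosomal gene ends, the squared difference between the strands averaged 2.86 times its binomial expectation. By that measure the intervals are too narrow. With 1 pooled table there is no spread between samples, no test and no p-value, and differences are read from intervals that do or do not overlap. A partial level can come from a share of cells, of alleles or of CpGs, which a pooled count cannot tell apart. The table held a median of 6 reads per autosomal CpG, 89.9% of the 20383623 autosomal CpGs had a read, and the autosomal level was 66.3%. Methylation counts carry no expression, so the labelled tissue was not checked against marker genes.

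A window was called low when its upper bound was under 20%, high when its lower bound was over 60%, intermediate when its interval lay between these limits, and otherwise unresolved. Windows reached 1 kb to either side of an annotated start or a gene end and needed 5 CpGs with a read and 20 read counts. Starts are numbered here as start 1 to start 3 along the direction of transcription. Coordinates are those of mm10.

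Most of these genes had an unmethylated start inside a methylated gene. Of the 19 annotated starts, 13 were called low, 4 high and 1 intermediate, and 1 was unresolved. Some windows overlap and share reads, so the 13 low starts lie in 10 separate places. By the same rule 56.1% of the 19087 annotated starts of autosomal protein-coding genes were low and 19.3% high, with a median of 13.3% against 9.07% over the 19 starts. At least 1 start was low in 9 of the 10 genes, all but Dnmt3l, and in 58.6% of 15565 autosomal genes, and 5 of the 10 genes have more than 1 start. The CpG-richer end of the gene was low in 6 of 10, beside 53.8% of 19783 autosomal genes, and high in the other 4, which were Dnmt1, Dnmt3a, Dnmt3l and Zfp57. The 3′ ends of all 10 genes were high, from 77.9% in Dnmt3a to 94.6% in Tdg, with a median of 86.5%, and 72.3% of 15333 autosomal 3′ ends were high. Between these stood Dnmt3b at 78.6%, Dnmt3l at 80.1%, Tet1 at 83.2%, Tet3 at 86.5%, Zfp57 at 86.6%, Uhrf1 at 88.4%, Dnmt1 at 90.6% and Tet2 at 92.4%. On the plus strand alone the 3′ end of Tet1 was unresolved at 77.8%.

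**Figure D1:**
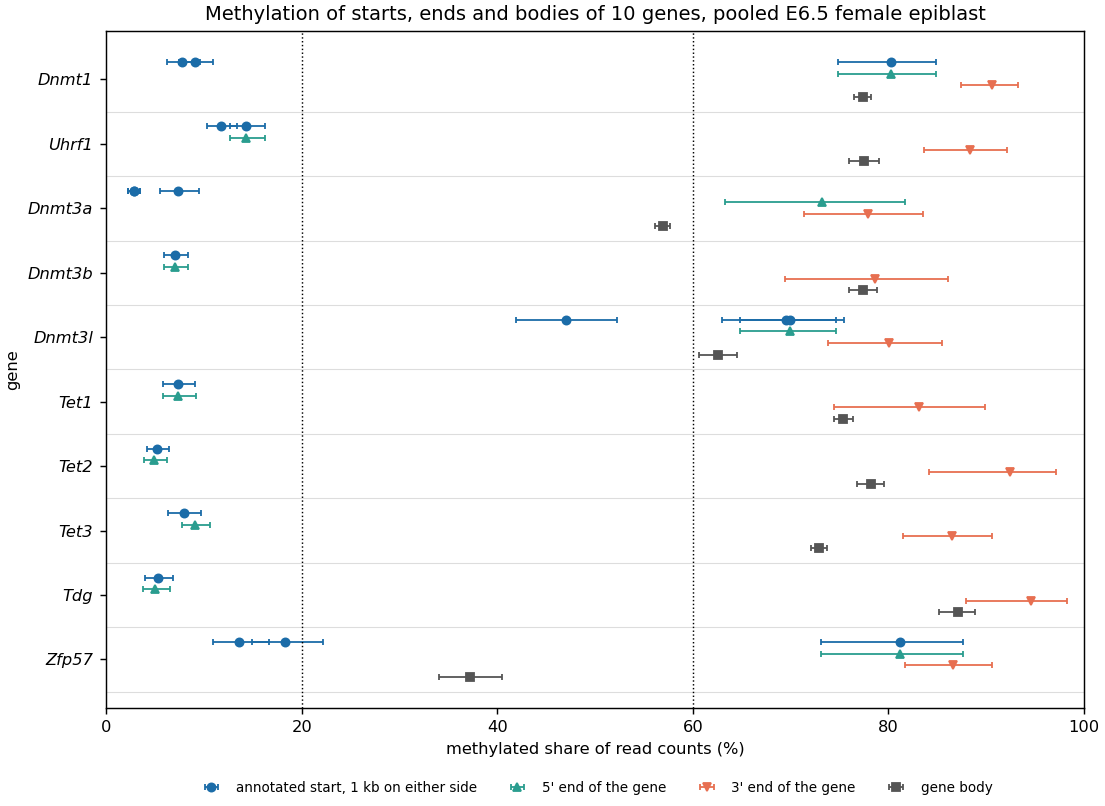
Methylated share of read counts (x axis, %) at annotated starts, gene ends and gene bodies of each gene (y axis), with 95% binomial intervals as bars and dotted lines at 20% and 60%. At least 1 start lies left of 20% in every gene but Dnmt3l, Dnmt1 and Zfp57 have a further start above 60%, and all 10 3′ ends lie above 60%.

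Dnmt1, the enzyme that copies methylation after replication, had starts of both kinds. The gene lies on the minus strand of chromosome 9. Start 1, at its 5′ end (chr9:20958888-20960888), gave 211 of 263 read counts methylated, 80.2% (74.9 to 84.9%) over 28 CpGs. Start 2, 6.91 kb further along (chr9:20951979-20953979), gave 78 of 998 read counts methylated, 7.82% (6.23 to 9.66%) over 75 CpGs. Start 3, at 7.26 kb (chr9:20951623-20953623), gave 100 of 1102 read counts methylated, 9.07% (7.44 to 10.9%) over 88 CpGs. The upstream start was thus methylated and the downstream pair was not, with intervals far apart. The methylated start is CpG-poor: near it, a CpG at position -232 read 4 of 4 methylated and another at -53 read 5 of 8. The downstream pair shares a CpG-dense region of 72 CpGs at 6.06% (4.65 to 7.75%), in which 28 CpGs had no methylated read. Dnmt1 is known to use a separate upstream start in oocytes, and which of these annotated starts that is was not taken from the files.

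Uhrf1, which recognises hemimethylated CpGs and recruits DNMT1, had the highest level among the 13 low starts, though its interval overlapped that of Zfp57 start 2. Start 1 (chr17:56302337-56304337) gave 217 of 1511 read counts methylated, 14.4% (12.6 to 16.2%) over 107 CpGs. Start 2, 0.976 kb downstream, gave 198 of 1681 read counts methylated, 11.8% (10.3 to 13.4%) over 121 CpGs. Annotated starts with 100 or more CpGs had a median of 5.83% and quartiles of 4.41% and 7.74%, so both Uhrf1 starts lay above the upper quartile. Its CpG-dense region stood at 10.2% (8.76 to 11.7%). There 100 of 122 CpGs were under 20%, and the highest stood at 31.6%. The window of start 1 also takes in a methylated flank. The 200 bp from position -1600 of start 2 held 9 CpGs at 57.6% over 118 read counts. Between positions -145 and -78 from start 2, 8 CpGs read 5 of 20, 5 of 20, 5 of 19, 3 of 20, 5 of 19, 6 of 19, 5 of 22 and 5 of 20 methylated. These 8 lie close together, so many of their counts can come from the same reads. Keeping 1 CpG per 100 bp lessens the repeated counting of a read, without ending it, and gives CpG-poor flanks more weight. At that setting start 1 rose to 23.3% and start 2 to 19.1%, and both calls became unresolved.

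Dnmt3a, a de novo methyltransferase, carried the least methylated starts of the set, while its 5′ end was methylated. The 5′ end of the gene gave 71 of 97 read counts methylated, 73.2% (63.2 to 81.7%) over only 14 CpGs, and read at 500 bp on either side it was unresolved at 68.4%. Start 1, 5.42 kb inside (chr12:3805980-3807980), gave 84 of 2989 read counts methylated, 2.81% (2.25 to 3.47%) over 255 CpGs, and start 2 lay in the same CpG-dense region at 2.81% (2.26 to 3.46%). In that region 203 of 287 CpGs with a read had no methylated read. Of the 255 CpGs of start 1, 244 had a read, and none from position -28 to 38 did. Just upstream, the CpGs at -56, -43 and -39 read 2 of 3, 1 of 1 and 0 of 1 methylated. With 1 CpG per 100 bp start 1 stood at 4.72% and was still low. Start 3, at 90.2 kb (chr12:3890744-3892744), gave 54 of 736 read counts methylated, 7.34% (5.56 to 9.46%) over 74 CpGs. Dnmt3a is known to make a short protein form from an internal start, which is the main form in pluripotent cells. The window of start 3 is overlapped by Gm31623, a long noncoding RNA on the opposite strand.

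The 300 bp promoters of the RefSeq table, 250 bases before to 50 after a start, put numbers on single CpGs. Of the 19 promoters 15 met the same limits of 5 CpGs with a read and 20 read counts. Of these 13 were low and 2 high. No share of low promoters over all genes was computed at this length, so these counts have no comparison. Those left out had under 5 CpGs: Dnmt1 start 1 at 75%, Dnmt3l starts 2 and 3 at 26.1% and 41.2%, and Zfp57 start 3 at 43.5%. All 387 CpGs in the 19 sequences were found at the same position in the count table. The lowest, the median and the highest of the 15 are printed to show how they differ in CpG number as well as in level. The sequences are from RefSeq, build GRCm38.p6 (the assembly behind mm10), and run 5′ to 3′ along the strand of the gene. A CpG in capitals was methylated in at least 50% of its reads. The lowest was Dnmt3a start 3 (chr12:3891494-3891793, plus strand) with 1 methylated count of 150 over 18 CpGs, 0.667% (0.0169 to 3.66%).
Dnmt3a start 3: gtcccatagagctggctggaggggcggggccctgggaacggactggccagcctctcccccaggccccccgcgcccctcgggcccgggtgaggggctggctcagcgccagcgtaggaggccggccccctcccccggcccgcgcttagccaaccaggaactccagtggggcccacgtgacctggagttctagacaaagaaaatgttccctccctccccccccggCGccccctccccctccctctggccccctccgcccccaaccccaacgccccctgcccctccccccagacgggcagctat
The median was Tet1 start 1 (chr10:62887275-62887574, minus strand) with 6 of 146 over 17 CpGs, 4.11% (1.52 to 8.73%).
Tet1 start 1: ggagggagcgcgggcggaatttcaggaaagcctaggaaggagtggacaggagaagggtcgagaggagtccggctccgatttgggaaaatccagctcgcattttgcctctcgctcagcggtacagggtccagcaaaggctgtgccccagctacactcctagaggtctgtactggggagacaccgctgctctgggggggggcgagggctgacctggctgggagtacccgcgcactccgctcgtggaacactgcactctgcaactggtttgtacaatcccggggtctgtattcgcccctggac
The highest was Dnmt3l start 1 (chr10:78042037-78042336, plus strand) with 50 of 59 over 6 CpGs, 84.7% (73.0 to 92.8%).
Dnmt3l start 1: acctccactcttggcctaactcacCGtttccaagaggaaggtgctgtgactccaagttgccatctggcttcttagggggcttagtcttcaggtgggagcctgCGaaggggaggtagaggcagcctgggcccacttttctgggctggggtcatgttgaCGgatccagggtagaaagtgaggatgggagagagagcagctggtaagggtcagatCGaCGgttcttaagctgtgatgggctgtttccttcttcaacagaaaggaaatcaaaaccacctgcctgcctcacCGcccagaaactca
The single capital CpG of Dnmt3a start 3 holds the 1 methylated count, out of only 2 reads, and all 6 CpGs of Dnmt3l start 1 are in capitals. From position -31 to 40 the CpGs of Dnmt3a start 3 had 1 to 4 reads each, so its level rests mostly on CpGs further upstream. The low promoters of Dnmt3a and Tet1 hold about as many CpGs as each other, while Dnmt3l holds fewer.

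Dnmt3b, the other de novo enzyme and known for its role in the implanting epiblast, had a single annotated start at its 5′ end. It gave 126 of 1779 read counts methylated, 7.08% (5.93 to 8.38%) over 131 CpGs (chr2:153648449-153650449). This lay within the quartiles of starts with 100 or more CpGs. In its CpG-dense region 63 of 131 CpGs had no methylated read, and its 3′ end stood at 78.6% (69.5 to 86.1%).

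Dnmt3l, the cofactor that stimulates DNMT3A and DNMT3B, was the exception: none of its 3 annotated starts was low. Start 1 (chr10:78041287-78043287) gave 244 of 349 read counts methylated, 69.9% (64.8 to 74.7%) over 34 CpGs. Start 2, at 7.56 kb, gave 177 of 376 read counts methylated, 47.1% (41.9 to 52.3%) over 42 CpGs and was the only intermediate start of the set. Start 3, at 13.0 kb, gave 155 of 223 read counts methylated, 69.5% (63.0 to 75.5%) over 25 CpGs, and read at 500 bp on either side it was unresolved at 59.2%. On the minus strand alone start 1 was unresolved at 67.0% and start 2 at 53.6%. Close to start 1 every CpG of the printed promoter was methylated in most reads: 14 of 14 at position -226, 10 of 11 at -148, 8 of 10 at -93, 3 of 3 at -38, 3 of 4 at -35 and 12 of 17 at 37. A stretch of lower methylation began a short way downstream. The CpG-dense region at chr10:78043101-78044000 gave 73 of 401 read counts methylated, 18.2% (14.5 to 22.3%), with 19 of its 34 CpGs under 20%, 15 between 20% and 80% and none above. That region holds the annotated start of Aire, a regulator of self-antigen expression in the thymus, which runs the other way on the minus strand.

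The 3 TET genes, whose enzymes oxidise 5-methylcytosine, all lie on the minus strand and had low starts. Tet1 start 1 (chr10:62886324-62888324) gave 78 of 1060 read counts methylated, 7.36% (5.86 to 9.10%) over 87 CpGs. Tet2 start 1 (chr3:133543390-133545390) gave 79 of 1510 read counts methylated, 5.23% (4.16 to 6.48%) over 141 CpGs. Tet3 start 1 (chr6:83440678-83442678), 15.5 kb inside the gene, gave 81 of 1022 read counts methylated, 7.93% (6.34 to 9.75%) over 86 CpGs. The intervals of Tet1 and Tet3 overlapped, and that of Tet2 overlapped both. The 5′ end of Tet3, for which the promoter table lists no start, was low as well at 149 of 1639 read counts methylated, 9.09% (7.74 to 10.6%), and with 1 CpG per 100 bp it was unresolved at 18.1%. The start of Tet3 also holds the start of B230319C09Rik, a long noncoding RNA on the plus strand, so its window belongs to a start on either strand. Read at 500 bp on either side the start of Tet3 stood at 3.40%.

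Tdg, the glycosylase that removes oxidised methylcytosine, had a low start and the most methylated body of the set. The start (chr10:82628838-82630838) gave 55 of 1035 read counts methylated, 5.31% (4.03 to 6.86%) over 109 CpGs. Of 99 CpGs in the CpG-dense region there, 77 had no methylated read. The level was 2.38% at 500 bp on either side, and 13.9% and unresolved with 1 CpG per 100 bp. The 3′ end, which overlaps Glt8d2, a glycosyltransferase-domain gene, stood at 94.6% (87.9 to 98.2%).

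Zfp57, the zinc finger protein that protects imprints, changed from methylated to unmethylated within 1.36 kb. Start 1 at the 5′ end (chr17:37000163-37002163) gave 99 of 122 read counts methylated, 81.1% (73.1 to 87.7%) over 19 CpGs. Start 2 (chr17:37001525-37003525) gave 80 of 588 read counts methylated, 13.6% (10.9 to 16.6%) over 62 CpGs. Start 3, at 2.5 kb, was unresolved with 85 of 464 read counts methylated, 18.3% (14.9 to 22.1%) over 51 CpGs. The windows of these starts overlap, so the shorter promoters separate them better. The promoter pair of starts 1 and 2 was chosen after the values were seen and is printed because it holds this change. Start 1 is chr17:37000913-37001212 and start 2 is chr17:37002275-37002574, both plus strand.
Zfp57 start 1: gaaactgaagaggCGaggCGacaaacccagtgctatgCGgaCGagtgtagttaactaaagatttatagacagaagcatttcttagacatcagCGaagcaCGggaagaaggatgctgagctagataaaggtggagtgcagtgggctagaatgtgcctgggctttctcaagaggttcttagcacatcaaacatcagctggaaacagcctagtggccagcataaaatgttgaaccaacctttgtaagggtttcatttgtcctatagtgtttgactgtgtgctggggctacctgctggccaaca
Zfp57 start 2: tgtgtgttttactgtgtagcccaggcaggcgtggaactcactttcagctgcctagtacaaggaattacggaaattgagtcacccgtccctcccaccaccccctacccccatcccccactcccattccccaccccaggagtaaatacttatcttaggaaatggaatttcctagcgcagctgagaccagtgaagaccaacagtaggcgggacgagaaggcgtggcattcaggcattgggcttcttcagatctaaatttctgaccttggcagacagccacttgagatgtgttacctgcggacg
All 6 CpGs of the first are in capitals, with 5 of 5, 5 of 5, 5 of 6, 5 of 6, 9 of 12 and 6 of 9 reads methylated, together 35 of 43 or 81.4% (66.6 to 91.6%). None of the 9 CpGs of the other is in capitals, with 4 of 81 counts methylated or 4.94% (1.36 to 12.2%). The CpG-dense region over start 2 (chr17:37002301-37003300) stood at 5.98% (4.10 to 8.39%), and 30 of its 52 CpGs had no methylated read. With 1 CpG per 100 bp the window of start 2 was intermediate at 31.3%, and at 500 bp on either side it stood at 6.77%. For start 3 the same settings gave 40.0% and 47.9%, both intermediate.

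A pair of short promoter motifs was counted on both strands of the 19 promoters. The GC box GGGCGG, which itself contains a CpG, was in 12 of 19 and in 35.7% of the 32851 promoters of the table. The CCAAT box CCAAT was in 7 of 19 and in 37.4% of all. Dnmt3a had the most GC boxes, with 6 at start 1 and 7 at start 2, whose promoters overlap. Dnmt1 start 1, which is methylated, had the most CCAAT boxes, with 5 and no GC box. Of the printed promoters, Zfp57 start 1 held neither motif and Zfp57 start 2 held 1 CCAAT box. Dnmt3a start 3 held 2 GC boxes, and Dnmt3l start 1 and Tet1 start 1 held 1 GC box each. A match is only a match of letters.

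The low stretches around the starts differed in width. Each was followed outward from its lowest 500 bp until 5 successive CpGs with a read reached a pooled level of 50%. Over all genes, with 1 low start per gene, 9125 stretches had a median of 1.64 kb and quartiles of 1.26 and 2.21 kb. Counted in the same way, 9 genes of the set gave 1 stretch each, of which 7 were wider than that median and 3 wider than the upper quartile. All their low starts, and the 5′ end of Tet3, gave 11 separate stretches with a median width of 2.16 kb. The widest were Tet1 at 3.81 kb, Dnmt3a start 3 at 3.61 kb, Dnmt3b at 3.21 kb and Dnmt3a starts 1 and 2 at 2.96 kb, followed by the 5′ end of Tet3 at 2.64 kb. The narrowest was Zfp57 at 1.15 kb, after Tdg at 1.60 kb. Most of the stretch lay downstream of the start in Tet1, with 0.380 kb before and 3.43 kb after it, and in Dnmt3b, with 0.625 kb before and 2.58 kb after it. Around Dnmt3a start 3 more lay upstream, with 2.15 kb before and 1.46 kb after it.

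**Figure D2:**
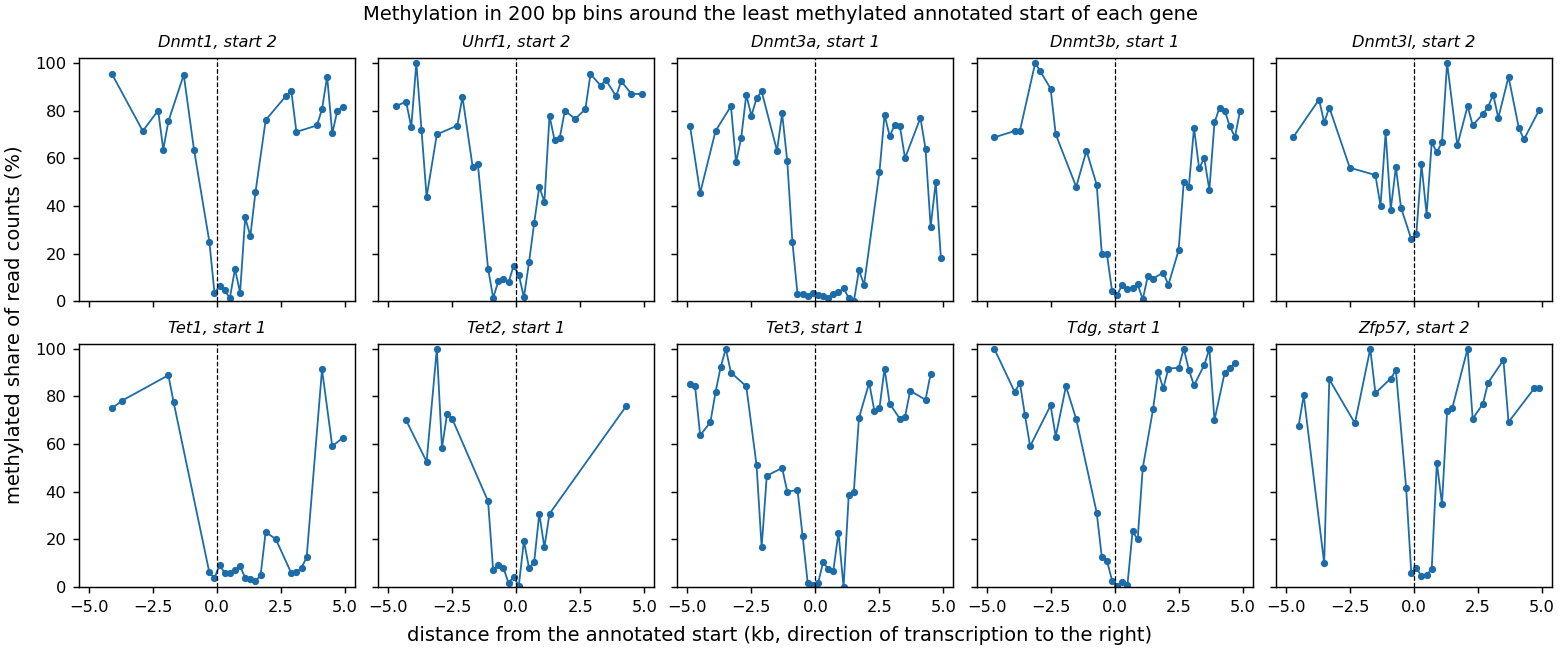
Methylated share of read counts (y axis, %) in 200 bp bins with at least 10 read counts against distance from the least methylated annotated start of each gene (x axis, kb, transcription to the right, dashed line at the start). The 9 other genes drop to a low trough at the start, which extends 3.43 kb downstream in Tet1, while Dnmt3l falls only part of the way, with 47.1% over its window.

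Inside the genes, most CpG-dense regions were either unmethylated or strongly methylated. Each was built from 500 bp windows holding 20 or more CpGs, joined when overlapping, and lay at least 1 kb inside the gene. The set had 17: 6 were low, 10 high and 1 unresolved. Among 13009 such regions of autosomal genes 19.8% were low and 55.6% high. The 5 that hold an annotated start of their gene, in Dnmt1, Dnmt3a, Tet3 and Zfp57, were all low. Over all genes 83.6% of the 1441 regions with an annotated start, here of any gene, were low. Of the 12 without one, 10 were high and 1 low, and none of the 12 holds a listed start of another gene. Beside them, 61.9% were high and 11.9% low of 11568 regions with no annotated start of any gene. Tet3 had the most, with 6 high regions from 84.2% to 90.7% and a last 1 along the gene at 75.2%, which was unresolved at 52.9% on the plus strand alone. The share of high regions moves with the number of CpGs asked for, here and in all genes: 37 of 49 beside 75.7% when 15 were enough, and 3 of 8 beside 34.0% when 25 were needed. The unresolved region lay 2.36 kb inside Tet3 at 135 of 247 read counts methylated, 54.7% (48.2 to 61.0%), with 18 of 20 CpGs between 20% and 80%.

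The 1 low region with no annotated start of its gene was in Tet1, 21.8 kb from the 5′ end (chr10:62865401-62866000). It gave 34 of 293 read counts methylated, 11.6% (8.17 to 15.8%) over 24 CpGs. Its call was unresolved at 13.7% on the plus strand alone and at 11.7% with 1 CpG per 100 bp. The region overlaps 1 end of Gm51805, a long noncoding RNA at chr10:62865670-62910643 whose strand the promoter table does not give. The other internal regions of Tet1, at 7.67 kb and 74.7 kb, were high at 87.1% (82.4 to 91.0%) and 95.3% (91.3 to 97.8%). The internal region of Tdg, at 14.5 kb, was high at 92.1% (86.3 to 96.0%).

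**Figure D3:**
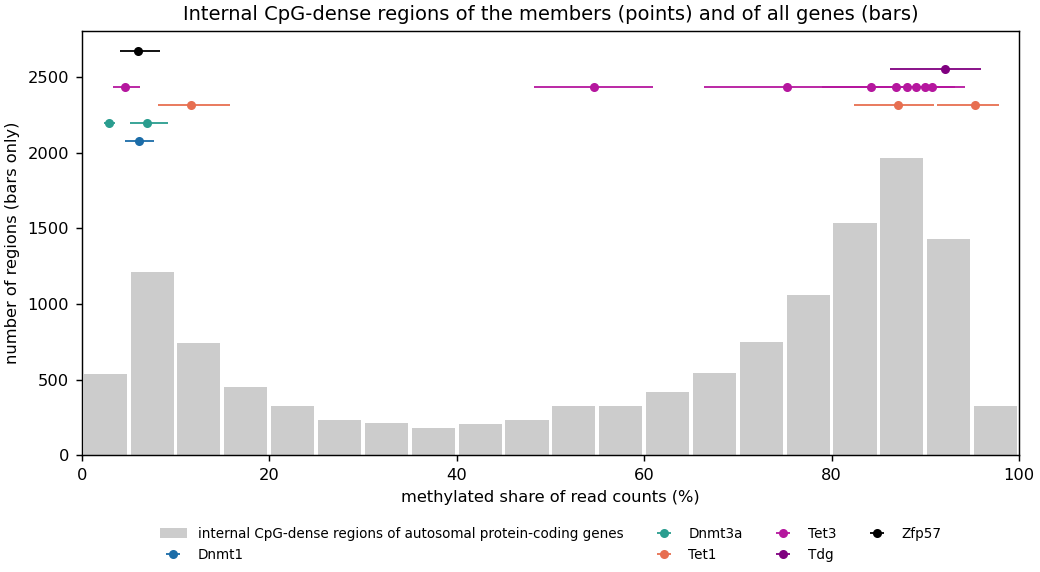
Levels of the 17 internal CpG-dense regions (points, colored by gene, 95% intervals as bars, height without meaning) above the number of such regions per 5% bin in all autosomal protein-coding genes (bars, y axis), against the methylated share of read counts (x axis, %). The points form a group of 6 under 20% and a group of 10 above 60%, with the Tet3 region at 54.7% between them.

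Gene bodies, without the outer 1 kb at each end, were called high in 8 of the 10 genes, as were 14063 of 17576 autosomal gene bodies, or 80%. The median was 76.4%, beside 75.8% over all bodies. The intermediate ones were Dnmt3a at 56.9% (56.1 to 57.7%) and Zfp57 at 37.2% (34.1 to 40.5%). Both have low starts inside the body, as do Dnmt1 and Tet3, whose bodies were high. Without their CpG-dense regions the bodies stood at 74.4% in Dnmt3a and 78.2% in Zfp57. With 1 CpG per 100 bp Dnmt3a was high at 70.5% and Zfp57 unresolved at 60.1%. The most methylated body was that of Tdg at 87.1% (85.2 to 88.8%), higher than 94.6% of all bodies. Dnmt3l, at 62.6% (60.6 to 64.5%), was the lowest of the high ones and was unresolved at 60.6% on the plus strand alone. The others stood at 72.9% in Tet3, 75.4% in Tet1, 77.4% in Dnmt1 and Dnmt3b, 77.5% in Uhrf1 and 78.2% in Tet2.

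Cut into 1 kb tiles and without the CpG-dense regions, the bodies of the 10 genes gave 423 measured tiles. Of these 369 were high, 39 unresolved, 13 intermediate and 2 low, or 0.473% low beside 0.0702% of 632166 tiles of all bodies, a share that here rests on 2 tiles. The intermediate share was 3.07% beside 1.44%. In Dnmt3a lay 7 of the 13 intermediate tiles and 1 of the low ones. The low tile of Dnmt3a (chr12:3889559-3890558) had 6 methylated counts of 75, 8.0% (2.99 to 16.6%), and lies just before the CpG-dense region of start 3. Lowered levels also lay further upstream: from the 83 kb tile onward the levels read 21.0%, 37.1% and 50.5%. The low stretch of start 3 itself reached only 2.15 kb upstream, so the lowering is not shown to be continuous. Past start 3 an intermediate tile and 1 at 67.9% came before the return to 86.4%. The other low tile lay 3 kb inside Tet1 with 8.45% over 14 CpGs, at the downstream edge of its low start.

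**Figure D4:**
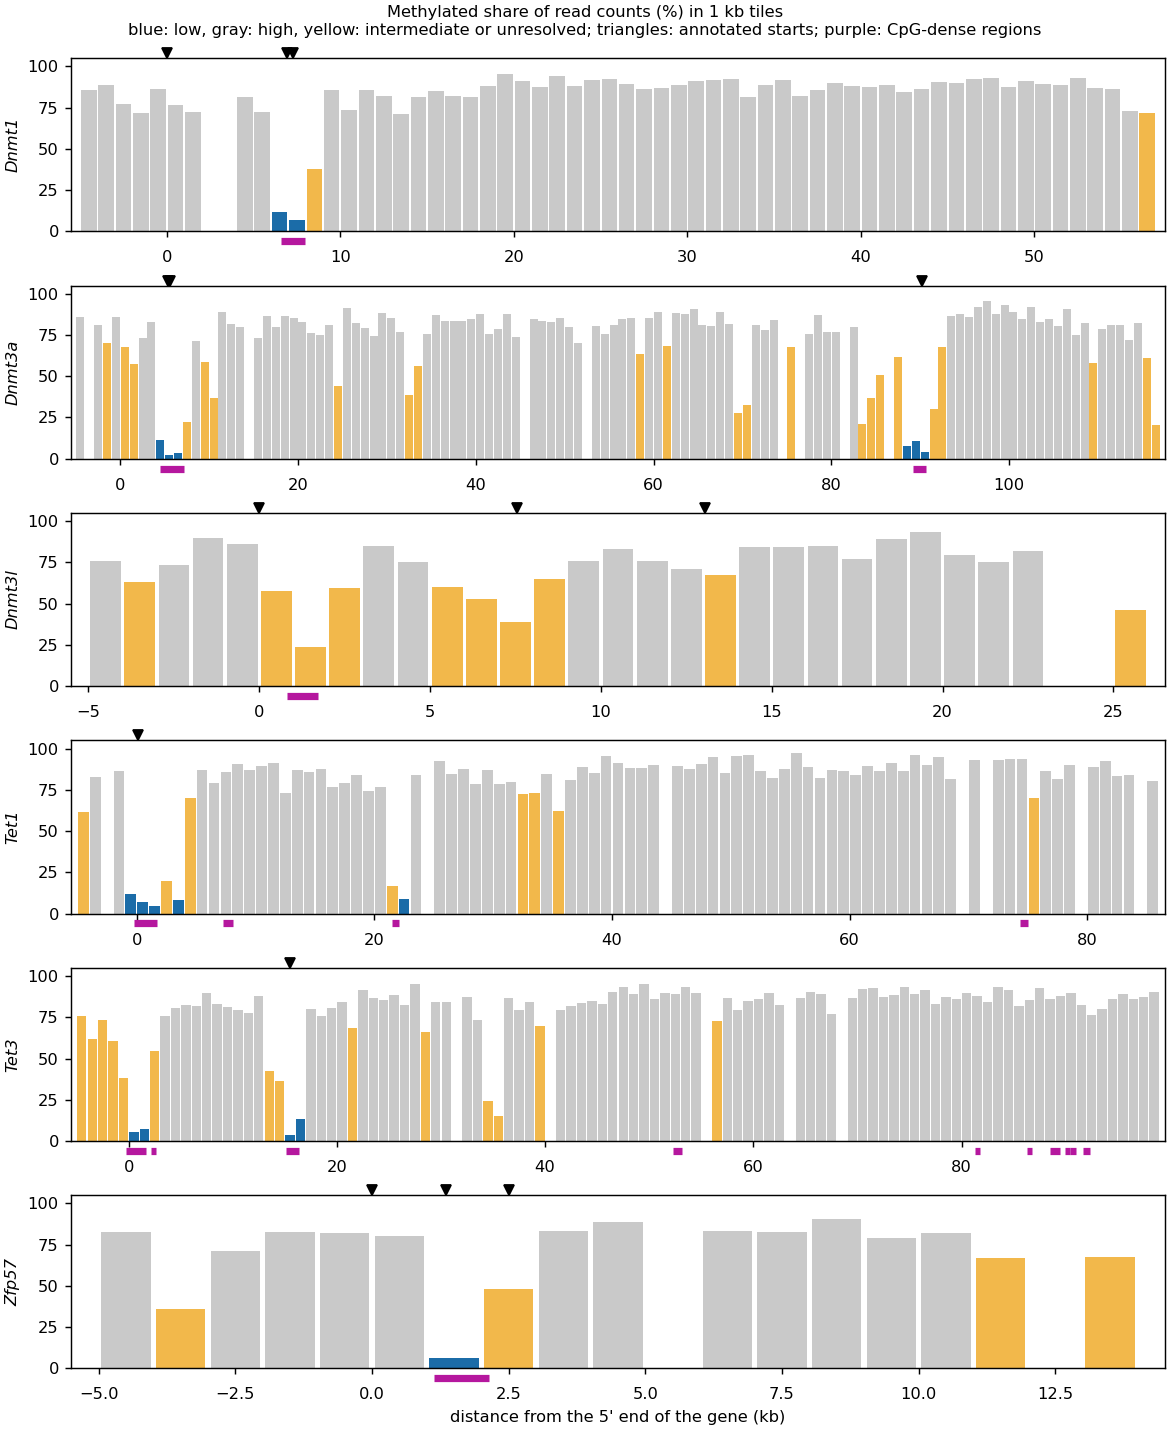
Methylated share of read counts (y axis, %) in 1 kb tiles against distance from the 5′ end (x axis, kb) for 6 genes, with triangles at annotated starts, purple bars at CpG-dense regions, and gaps where a tile had too few CpGs or reads. Blue low tiles stand at the internal starts of Dnmt1, Dnmt3a, Tet3 and Zfp57, at the 5′ ends of Tet1 and Tet3, and near 22 kb in Tet1.

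The level of the starts followed their CpG number. All 13 starts with 60 or more CpGs, in the same 10 places, were low, from 2.81% to 14.4% with a median of 7.36%, as were 93.0% of 10636 such starts of all genes, with a median of 7.63%. None of the 6 starts with fewer CpGs was low, from 18.3% to 81.1%. Over all genes the median start stood at 72.2% with under 30 CpGs, 30.5% with 30 to 59, 10.1% with 60 to 99 and 5.83% with 100 or more. Within these classes Uhrf1 lay above the quartiles at both starts, as did Dnmt1 start 1, Zfp57 start 1 and, narrowly, Dnmt3l start 1. Dnmt3a lay below them at all 3 starts, narrowly at start 3, and Tet1 narrowly below. The other starts lay within them. Genes with a low and a high start among starts at least 1 kb apart made up 33.7% of 1403 autosomal genes, and here they were Dnmt1 and Zfp57 of the 4 genes with such starts.

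The wider machinery was read from 62 other genes of methylation, its readers, repair, cofactors and imprint protection, 4 of them on the X. Their CpG-richer ends were low in 46, or 74.2%, with a median of 9.01%, where 53.8% of all autosomal genes were low. With 1 CpG per 100 bp 25 were low beside 28.8% of all genes, and with an upper bound under 10% 26 were low beside 28.9%. Of the 46 with at least 60 CpGs there, 44 were low, beside 91.6% of 10686 autosomal ends with as many CpGs. Among the lowest were Ehmt1, a histone H3 lysine 9 methyltransferase, at 3.01% and the insulator protein gene Ctcf at 3.56%. Ends called high were 4: Ctcfl, the germ-cell relative of Ctcf, at 70.9%, Usp7, a deubiquitinase that acts on DNMT1 and UHRF1, at 83.1%, the DNA ligase Lig1 at 87.7%, and the isocitrate dehydrogenase Idh2 at 88.6%. In Usp7 and Idh2 the only annotated start was elsewhere and low, at 3.28% and 8.87%. Lig1 has 3 annotated starts, of which the lowest was low at 8.39%.

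Of the 16 genes that were not low, 7 have no annotated start in the promoter table, among them Ctcfl, Dnmt3c, Dppa2, Dppa3, Dppa4 and Neil2, and whether the end measured is their start is not known. Dnmt3c, a de novo enzyme of male germ cells listed in the gene table as Dnmt3b-ps1, was unresolved at 62.3% over 17 CpGs. Dppa2 and Dppa4, a partner pair of pluripotent cells, were unresolved at 61.5% over 26 CpGs and 51.5% over 27, and Dppa3, which shields the maternal genome from demethylation, was intermediate at 28.9%. The cytidine deaminase Apobec1 was intermediate at 32.6%. The zinc finger readers of methylated DNA gave 37.6% in Zbtb38, which was intermediate with a low start at 8.21%, 22.6% in the X-linked Zbtb33 and 19.9% in Zbtb4. Qser1, at 19.4% with a low start at 4.31%, and the glycosylases Neil1 at 20.4% and Neil2 at 22.2% were unresolved. Of the 16 genes 5 had an annotated start that was low. Over the 45 genes with an annotated start the lowest one was low in 39. Beside this, 58.6% of 15565 autosomal genes had at least 1 low start, a share not matched for CpG number.

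**Figure D5:**
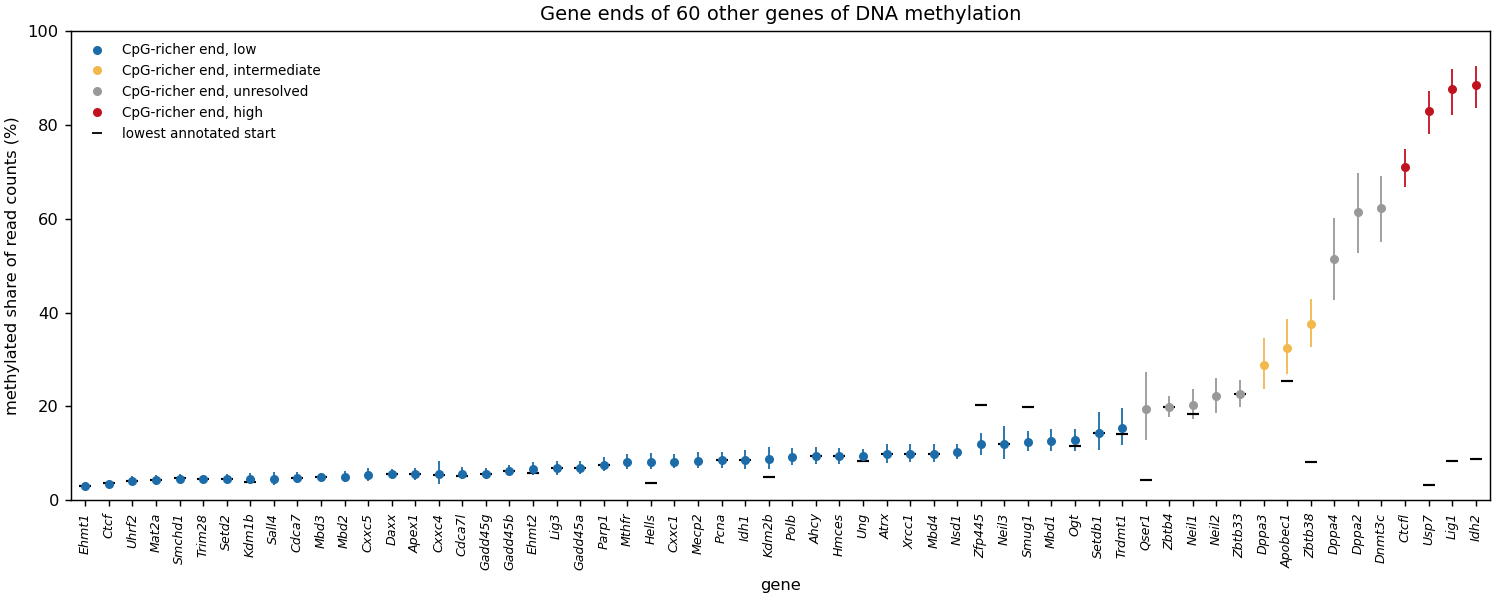
Methylated share of read counts (y axis, %) at the CpG-richer end of 60 of the other genes of DNA methylation (x axis, ordered by level), with 95% intervals as bars, colors for the call and black dashes for the lowest annotated start. The 45 low genes drawn lie on the left, and in Usp7, Lig1 and Idh2 the dash lies far below the point.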

How the data were processed

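The values deposited by the authors are read counts: for either strand of a CpG, how many reads were methylated and how many were not, with no normalization. Bowtie2 2.1.0, Bismark 0.12.5, cutadapt 1.3 and the build mm10 are named, without their use, per the submitters' processing notes. How the samples were combined, and whether duplicate reads were removed, is not given in the sources used here; duplicates would narrow the intervals. The table held 137691322 read counts, and 0.134% lay on unplaced sequences and were left out. Both strands of a CpG were summed. Gene ends came from a RefSeq gene table and starts, strands and sequences from a RefSeq promoter table of GRCm38.p6, which covers 79.6% of autosomal protein-coding genes, and neither gives exons.

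The 10 genes and the list of 62 were chosen with earlier results of these data known. All 10 genes were named with both ends, the body and internal CpG-dense regions (those of Tet3 as a range), and of the 62 the 3 lowest and all that were not low, except for 2 that are not reported here. The comparison of annotated starts, and its alternatives, were added after the data were seen. Alternatives varied the depth, the strand, the window, the summary, the CpG spacing, the thresholds and the interval width. The code was tested on simulated data and ran in Python 3.11.15 with numpy 2.4.6, pandas 2.3.3, scipy 1.17.1 and matplotlib 3.10.9.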

Additional observations from a re-analysis of the deposited data

How the results depend on the processing

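No paired analysis was possible because the counts of both samples came as 1 table, and for the same reason no sample could be left out. Over 7 alternatives, 548 recomputed levels of 88 windows of the 10 genes gave 32 changed calls, none of them between low and high. Intervals widened for the strand difference of 2.86 times are not among these 7. The low count among the 62 other genes fell from 46 to 25 with 1 CpG per 100 bp and to 26 with an upper bound under 10%, beside 28.8% and 28.9% of all autosomal genes. High internal CpG-dense regions numbered 37 of 49 when 15 CpGs were enough and 3 of 8 when 25 were needed, beside 10 of 17 reported. The setting changes both their number and the share that is high, and the cause of the latter was not tested. The median gene body, 76.4%, was 77.5% as a mean of CpG fractions, 77.9% with 1 CpG per 100 bp and 80.9% without CpG-dense regions. Low annotated starts numbered 9 of 19 both with 1 CpG per 100 bp, beside 31.9% of all starts, and with the 10% threshold, beside 31.4%. Depth limits the CpG-poor windows most: the 5′ end of Dnmt3a had 97 read counts and start 1 of Zfp57 had 122. For 4 promoters of 300 bp the limit was CpG number, with fewer than the 5 CpGs with a read needed for a call.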
